A study of Mus musculus with 12 samples.

Results

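The genes described here are 9 components, regulators and receptors of the complement system (C1qa, C4b, C2, C3, Cfb, Cfi, Cd55, C3ar1 and C5ar1), taken by gene symbol from the 19036 genes of an RNA sequencing table of mouse kidney. All 9 had a row, and 8 passed a filter on low values and were tested. C3ar1 did not pass it. C5ar1 passed it through the 2 cisplatin-treated groups, since no vehicle library reached an FPKM of 1. Its test thus compares groups in a gene kept because some treated libraries were higher, and is no independent support. FPKM is the number of fragments scaled to transcript length and to the mapped fragments of the library, so levels can be set side by side between genes.

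The 12 libraries came from kidneys of C57BL/6 mice in 3 groups of 4. Vehicle mice received saline, and cisplatin mice received 25 mg/kg of cisplatin, a platinum drug that injures the kidney tubule, by intraperitoneal injection. The third group, called the combination group here, received the same cisplatin dose after 48 h of pretreatment with 15 mg/kg of the compound 84-B10, and its label is cisplatin+84-B10. Kidneys of all groups were taken 72 h after cisplatin. The design text gives 84-B10 to the combination group, whereas the treatment protocol of the samples names the pretreatment for both cisplatin groups, so the cisplatin group is named by its label. No alleles or transgenes are given, and a group that received 84-B10 without cisplatin was not analysed here. The whole kidney was ground, so fewer cells of a type and less RNA per cell cannot be told apart in any value below.

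The complement system is a cascade of plasma and tissue proteins that marks cells and microbes for removal. The classical pathway starts with C1q and its proteases, which cleave C4 and C2 to form a C3 convertase, and the alternative pathway forms its own convertase from C3b and factor B, the product of Cfb. Cleavage of C3 releases the peptide C3a, and later steps release C5a and build the membrane attack complex from C5b to C9. Liver makes most circulating complement, and kidney tubule cells are known to make some of its components locally. Regulators such as factor I and CD55 limit the convertases on host cells.

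Estimated count totals per library were 15.76 to 16.52 M in the vehicle group, 17.74 and 18.15 M in cisplatin libraries 3 and 4, and 17.47 to 18.17 M in the combination group; no count column was used for the other two cisplatin libraries. All 7 listed kidney tubule markers were detected in every group, and their summed level was 5777 to 5980 FPKM in vehicle libraries, 1062 to 1809 in cisplatin libraries and 1113 to 1916 in combination libraries. Most of the vehicle sum came from Slc34a1, with a mean of 4462 FPKM there and of 642.6 and 869.2 in the cisplatin and combination groups. By the limma test below, 5 of the 7 fell after cisplatin and 1 rose, beside 21.8% and 56.3% of all genes. Aqp2 was higher, with means of 108.3, 233.7 and 319.2 FPKM in vehicle, cisplatin and combination kidneys. Atp6v1g3 was at 19.8, 21.7 and 27.7. Differences between groups were wide. Of 12428 genes tested with limma on log2(FPKM + 1), 9710 (78.1%) changed between cisplatin and vehicle at a Benjamini-Hochberg adjusted p under 0.05, 56.3% upward and 21.8% downward. Between combination and vehicle 79.2% changed, 56.6% upward and 22.6% downward. The median log2 fold change of all tested genes was 0.26 in each of these comparisons. Scaling the libraries by the median of ratios changed treated FPKM relative to vehicle by a mean of -0.29 and -0.30 on the log2 scale. Because 1 was added to each FPKM, fold changes at low levels moved by less, as for C5ar1 from 0.72 to 0.64 after cisplatin. With that scaling 4618 genes rose and 4602 fell after cisplatin, in place of 6999 and 2711. Both comparisons use the same vehicle libraries, so their values are given side by side and not as independent results. Errors are SD beside FPKM and standard errors beside log2 fold changes.

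All 8 members tested changed after cisplatin, 7 upward and 1, Cfb, downward, and the same count held between combination and vehicle. The range was wide: after cisplatin C3 rose 60.5 times, Cfi 5.2 times, and C2, whose direction turned with median-of-ratios scaling, 1.17 times. With quantile normalization 4 members passed after cisplatin, all upward. These counts stand beside the 78.1% and 79.2% of all genes that changed, so the number of members called is close to what the table as a whole gave; the members' median log2 fold change was 0.82 after cisplatin and 0.85 in the combination group, against 0.26 over all genes. Treated and vehicle libraries were fully separated for 7 of 8 members after cisplatin, beside 71.6% of all genes, and for 8 of 8 between combination and vehicle, beside 74.8%. Between combination and cisplatin, 0 of the 8 passed.

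**Figure D1:**
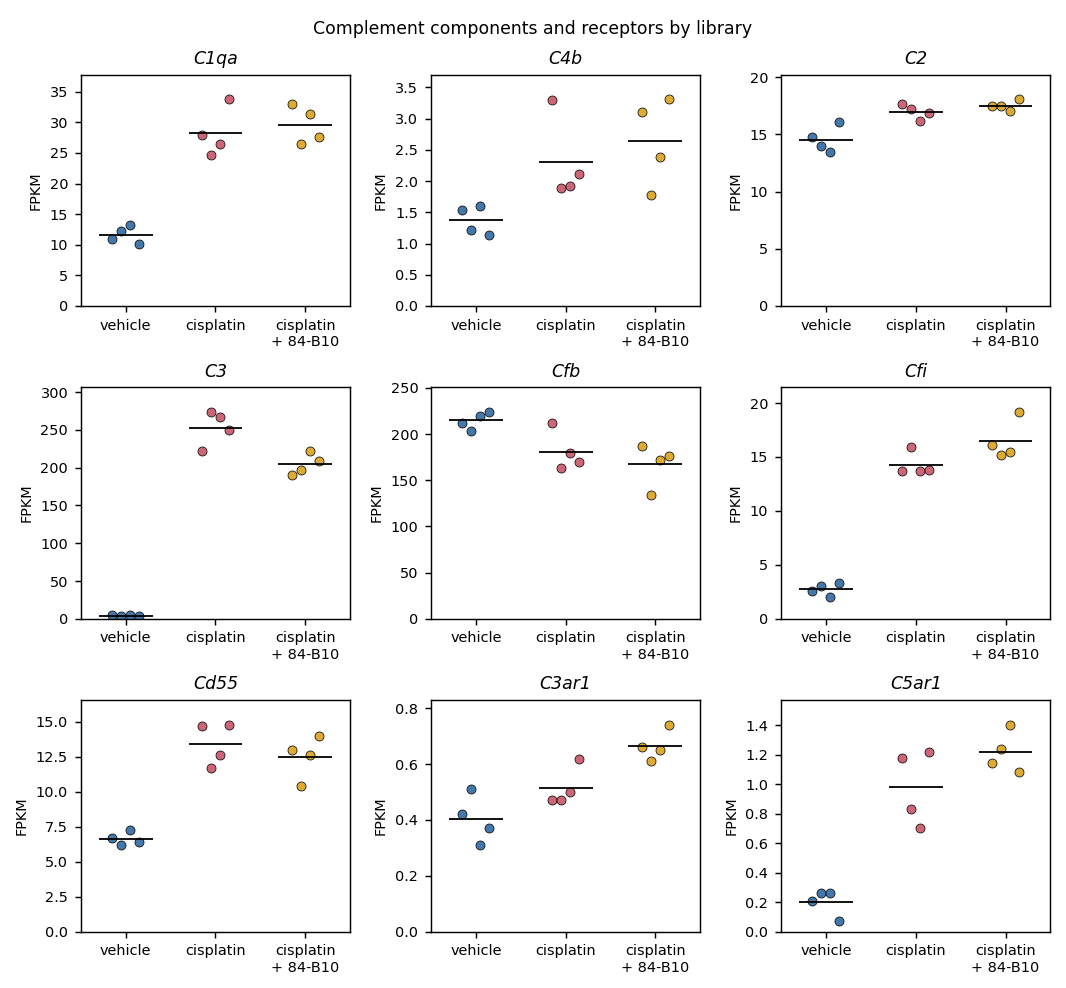
FPKM of the 9 genes in each library (points, offset sideways by library number) and the mean of each group of 4 (lines); vertical axes start at 0 and differ between panels. C3 lies at 3.62 to 4.54 in vehicle libraries and at 189.8 or more in all others, while Cfb lies above 130 in every library.

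C3, the central component that both convertases cleave, had the largest rise of the 9 genes. Its FPKM was 4.54, 4.11, 4.48 and 3.62 in vehicle libraries 1 to 4, 222.1, 273.5, 267.2 and 250.01 in cisplatin libraries, and 189.8, 196.9, 221.6 and 209.4 in combination libraries. No library of either treated group came near the vehicle range. The group means were 4.19 ± 0.42, 253.2 ± 23.0 and 204.4 ± 14.04 (n = 4 each). On the log2 scale C3 rose by 5.61 ± 0.08 after cisplatin (limma adjusted p = 5.72e-15) and by 5.31 ± 0.08 in the combination group against vehicle (limma adjusted p = 8e-15). Among the 12428 genes tested, C3 stood at rank 12 of the rises after cisplatin and at rank 19 in the combination group. Estimated counts of C3 ran from 221 to 267 in vehicle libraries and were 16212 and 16210 in the cisplatin libraries with counts, so depth does not limit this value.

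The stretch around the annotated start of C3 is shown because this gene carries the largest change, and that of Cd55, which also rose, is shown for comparison. Sequences are from RefSeq on the GRCm38.p6 build, 250 bases before to 50 bases after the start, given 5′ to 3′ on the minus strand, which both genes use. C3 lies at chr17:57228087-57228386 and Cd55 at chr1:130462695-130462994. Capitals mark matches to any of 5 motifs.
C3: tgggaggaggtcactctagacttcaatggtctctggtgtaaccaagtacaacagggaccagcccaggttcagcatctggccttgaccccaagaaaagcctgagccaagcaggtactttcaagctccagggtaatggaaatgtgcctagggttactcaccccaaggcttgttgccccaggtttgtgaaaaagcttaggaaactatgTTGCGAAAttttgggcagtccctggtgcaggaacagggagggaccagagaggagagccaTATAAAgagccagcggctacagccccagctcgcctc
Cd55: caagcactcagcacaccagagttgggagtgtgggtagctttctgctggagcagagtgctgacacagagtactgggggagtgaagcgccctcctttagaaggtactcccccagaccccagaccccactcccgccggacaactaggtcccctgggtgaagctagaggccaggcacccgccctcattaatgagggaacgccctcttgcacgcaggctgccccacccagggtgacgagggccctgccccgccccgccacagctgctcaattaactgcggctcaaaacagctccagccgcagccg
Both strands were searched for TATAAA, the AP-1 letters TGANTCA, the STAT letters TTCNNNGAA, the C/EBP letters TTGCNNAA and the NF-kB consensus by name. The C3 stretch held TTGCGAAA at bases 206 to 213 and TATAAA at bases 265 to 270, which do not overlap, and the Cd55 stretch held none of the 5. Counted from the annotated start, the C3 matches begin at -45 and 14, so TATAAA lies after the start. Of the 32851 stretches in the same RefSeq table, 10.8% held the C/EBP letters, 13.6% TATAAA, 7.81% the AP-1 letters, 8.3% the STAT letters and 4.51% the NF-kB consensus. A match describes letters in this window and no binding was measured. Of the 9 genes, 4 had an entry: the stretch of C3ar1 held TATAAA and an AP-1 match, and that of C5ar1 held none of the 5. C1qa, C4b, C2, Cfb and Cfi had no entry.

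C1qa, one of the 3 chains of C1q, the recognition molecule of the classical pathway, rose 2.42 times. C1qa was 10.9, 12.2, 13.3 and 10.1 FPKM in vehicle libraries, 28.0, 24.6, 26.4 and 33.8 in cisplatin libraries, and 33.1, 26.5, 31.3 and 27.6 in combination libraries. Every treated library lay above every vehicle library, and the 2 treated groups overlapped. C1qa rose by 1.21 ± 0.10 on the log2 scale after cisplatin (limma adjusted p = 1.43e-07) and by 1.28 ± 0.10 in the combination group against vehicle (limma adjusted p = 7.06e-08). The partner chains moved with it: C1qb rose from 11.9 to 26.3 and then stood at 28.8 FPKM in the combination group (log2 fold change after cisplatin 1.07 ± 0.12, limma adjusted p = 1.85e-06), and C1qc from 7.26 to 17.5 and 19.8 (1.15 ± 0.13, limma adjusted p = 2.21e-06). C1qa made up 35.1 to 41.9% of the summed C1q chains over all 12 libraries. The within-library log2 ratio of C1qa to C1qb did not pass in any of the 3 comparisons (0.14 after cisplatin, exact permutation test, adjusted p = 0.377).

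In kidney, C1q is mostly a product of macrophages and dendritic cells, and the summed level of the macrophage markers was also higher in treated kidneys, although its genes did not move together. The 10 genes summed to 26.99 to 31.0 FPKM in vehicle libraries, 98.62 to 128.1 in cisplatin libraries and 119.9 to 144.5 in combination libraries, and none was at 0 in all libraries of a group. Of the 5 tested, 3 rose after cisplatin, beside 56.3% of all genes. In treated kidneys most of the sum came from Cd68 and Cd14. Cd68, a lysosomal protein of macrophages, had mean FPKM of 1.96, 64.1 and 77.4 in the vehicle, cisplatin and combination groups. Csf1r, the receptor for macrophage colony-stimulating factor, was at 7.36 and 7.23 FPKM in vehicle and cisplatin kidneys (log2 fold change -0.03 ± 0.11, limma adjusted p = 0.792) and fell in the combination group against vehicle (-0.33 ± 0.11, limma adjusted p = 0.0161). Cx3cr1 had means of 0.97 and 0.68 FPKM and Ms4a7 of 0.43 and 0.24 in vehicle and cisplatin kidneys, both untested, and Adgre1, a surface receptor of mouse macrophages, stayed under 1 FPKM in every library. The part of these cells in the C1q values was not tested.

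C4b and C2, whose products join as the classical and lectin C3 convertase, were higher by small amounts. C4b was 1.54, 1.21, 1.60 and 1.13 FPKM in vehicle libraries, 3.30, 1.89, 1.92 and 2.11 in cisplatin libraries, and 3.10, 1.78, 2.38 and 3.31 in combination libraries. The lowest treated library was above the highest vehicle library, by 1.78 against 1.60, and cisplatin library 1 was far above the rest of its group. For C4b the log2 fold change was 0.47 ± 0.15 after cisplatin (limma adjusted p = 0.0121) and 0.60 ± 0.15 in the combination group (limma adjusted p = 0.00225). The cisplatin call was lost under median-of-ratios scaling (0.28, adjusted p = 0.106), quantile normalization (0.11, adjusted p = 0.5), edgeR on counts (0.30, adjusted p = 0.253) and DESeq2 (0.28, adjusted p = 0.319), and with FPKM of only the 10 libraries that have counts (0.35, limma adjusted p = 0.0619). Without cisplatin library 1 C4b came to 0.33 (limma adjusted p = 0.0382). C4b shares 35.2% of its 50-base stretches with C4a, a close copy, which was at 0.07 to 0.39 FPKM, so reads may have been split between the copies.

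C2 was 14.8, 13.95, 13.4 and 16.1 FPKM in vehicle libraries, 17.6, 17.2, 16.1 and 16.9 in cisplatin libraries, and 17.5, 17.5, 17.0 and 18.1 in combination libraries. The groups stood apart by a narrow margin, with the highest vehicle library at 16.05 and the lowest cisplatin library at 16.14. C2 rose by 0.21 ± 0.06 on the log2 scale after cisplatin (limma adjusted p = 0.0034) and by 0.25 ± 0.06 in the combination group (limma adjusted p = 0.000824), which is no more than the median shift of all genes, and its direction turned to -0.07 and -0.03 with median-of-ratios scaling, neither of which passed.

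Cfb, which encodes factor B, the protease of the alternative C3 convertase, was the most abundant of the 9 genes in vehicle kidneys and the one that fell. Its FPKM was 212.5, 203.6, 219.6 and 223.6 in vehicle libraries, 212.2, 162.7, 179.1 and 169.9 in cisplatin libraries, and 187.0, 134.0, 171.4 and 175.9 in combination libraries. Cisplatin library 1 lay within the vehicle range, and every combination library lay below it. The log2 fold change of Cfb was -0.25 ± 0.10 after cisplatin (limma adjusted p = 0.0336) and -0.37 ± 0.10 in the combination group (limma adjusted p = 0.00394). The cisplatin call was lost on leaving out any of 6 of the 12 libraries, with an adjusted p of up to 0.0979 without cisplatin library 2, whereas the combination call held in all 12 (highest adjusted p = 0.0124). Median-of-ratios scaling made both falls larger, at -0.55 and -0.67, and quantile normalization made the first smaller, at -0.12 (limma adjusted p = 0.296). The cisplatin call was also lost after rescaling to TPM (-0.20, limma adjusted p = 0.1) and without the filter (limma adjusted p = 0.0512).

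Cfb and C2 are neighbours on mouse chromosome 17 with homologous protease products, and they moved apart. The within-library log2 ratio of Cfb to C2 was 3.72 to 3.94 in vehicle libraries, 3.17 to 3.52 in cisplatin libraries and 2.87 to 3.35 in combination libraries. The ratio fell by 0.46 after cisplatin and by 0.63 in the combination group. Each had an exact permutation p of 0.0286, the smallest that 4 against 4 libraries allow, and an adjusted p of 0.0468 over 18 ratio tests. A ratio within a library shows unequal change. Because of the added 1 it still depends slightly on a common scale factor, and its difference after cisplatin was -0.48 with median-of-ratios scaling. The difference shrank to -0.07 after cisplatin with quantile normalization (exact permutation test, adjusted p = 0.478). Its adjusted p after cisplatin was 0.0857 without vehicle library 3 and 0.0514 without cisplatin library 3. The latter still comes from the smallest p, with fewer of the 18 tests at it. The ratio calls of C3 below also had an adjusted p above 0.05 without cisplatin library 3. Of those, only C3 to Cfi between combination and cisplatin lost the smallest p (exact permutation test, adjusted p = 0.0935). In the GENCODE M21 transcripts, 74.2% of the 50-base stretches of Cfb and 51.4% of those of C2 also occur in the gene model Gm20547, for which no row was used here; how such reads were assigned is not given in the sources used here.

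The makeup of the set shifted mainly through the rise of C3, as the fall of Cfb was small beside it. Cfb made up 83.1 to 84.5% of the summed FPKM of the 9 genes in vehicle libraries, 32.0 to 41.4% in cisplatin libraries and 33.2 to 40.5% in combination libraries. C3 went the other way, from 1.37 to 1.79% in vehicle libraries to 43.3 to 53.7% and 41.1 to 48.7%. The sum itself was 245.1 to 264.7 FPKM in vehicle libraries, 503.1 to 518.3 in cisplatin libraries and 404.2 to 473.9 in combination libraries.

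**Figure D2:**
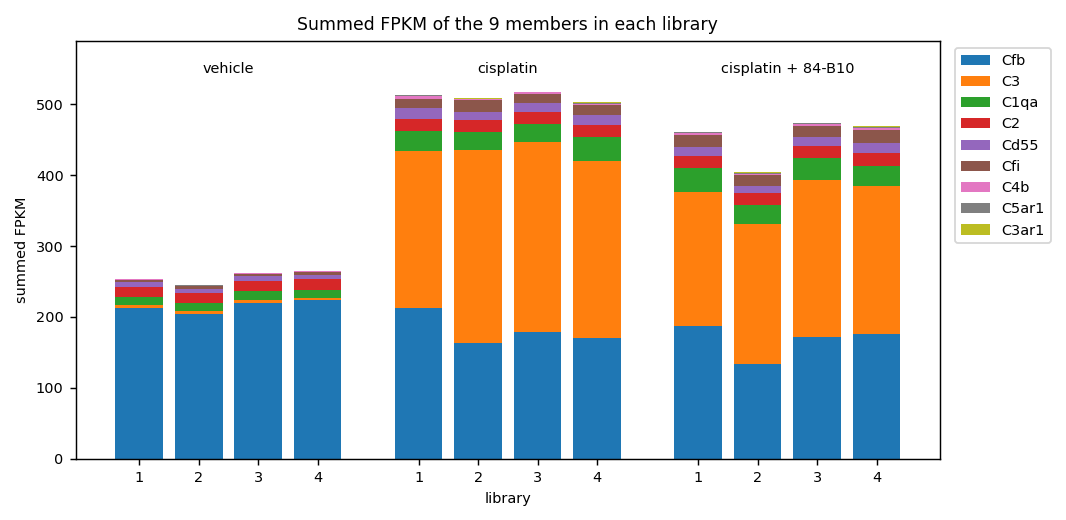
Summed FPKM of the 9 genes in each library, 1 bar a library, stacked by gene and grouped by treatment. Cfb fills most of each vehicle bar, and C3 and Cfb together fill most of each bar of the cisplatin and combination groups.

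Both regulators among the members rose. Cfi encodes factor I, the protease that cleaves C3b and C4b with the help of cofactors. Cfi was 2.57, 3.07, 2.03 and 3.31 FPKM in vehicle libraries, 13.7, 15.9, 13.7 and 13.8 in cisplatin libraries, and 16.1, 15.2, 15.4 and 19.2 in combination libraries. Treated and vehicle libraries were far apart, and the 2 treated groups overlapped. Cfi rose on the log2 scale by 2.04 ± 0.10 after cisplatin (5.2 times, limma adjusted p = 9.88e-10) and by 2.23 ± 0.10 in the combination group (6.0 times, limma adjusted p = 3.63e-10).

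Cd55 encodes decay-accelerating factor, a membrane-anchored regulator that takes C3 convertases apart. Cd55 was 6.73, 6.21, 7.30 and 6.38 FPKM in vehicle libraries, 14.7, 11.7, 12.7 and 14.8 in cisplatin libraries, and 13.0, 10.4, 12.6 and 13.96 in combination libraries. Its level was about 2.02 times the vehicle mean after cisplatin, with no overlap between vehicle and treated libraries. The log2 fold change of Cd55 was 0.91 ± 0.09 after cisplatin (limma adjusted p = 6.81e-07) and 0.81 ± 0.09 in the combination group (limma adjusted p = 1.88e-06). Its neighbour Cd55b, a second mouse copy that shares 9.62% of the 50-base stretches of Cd55, was at 0.06 to 0.98 FPKM and was not tested.

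C3 rose by more than either regulator. The within-library log2 ratio of C3 to Cfi was 3.58 higher after cisplatin and 3.08 higher in the combination group than in vehicle kidneys, and that of C3 to Cd55 was 4.70 and 4.49 higher (exact permutation tests, adjusted p = 0.0468 each). C3 to C4b was 5.15 and 4.70 higher, with the same adjusted p from the exact test. These ratios were chosen with earlier results of the data known.

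The receptors for the peptides C3a and C5a were the least abundant of the 9 genes. C5ar1, the C5a receptor of neutrophils and macrophages, was 0.21, 0.26, 0.26 and 0.07 FPKM in vehicle libraries, 1.18, 0.83, 0.70 and 1.22 in cisplatin libraries, and 1.14, 1.24, 1.40 and 1.08 in combination libraries. Its estimated counts were 3 to 10 in vehicle libraries and 30 to 60.99 in the others that have counts. The log2 fold change of C5ar1 was 0.72 ± 0.10 after cisplatin (limma adjusted p = 1.42e-05) and 0.89 ± 0.10 in the combination group (limma adjusted p = 1.71e-06), on a scale whose added 1 understates changes at this level; the cisplatin call was lost with quantile normalization (0.13, limma adjusted p = 0.325). C3ar1, the C3a receptor, was 0.42, 0.51, 0.31 and 0.37 FPKM in vehicle libraries, 0.47, 0.47, 0.50 and 0.62 in cisplatin libraries, and 0.66, 0.61, 0.65 and 0.74 in combination libraries. Combination libraries of C3ar1 lay above all vehicle libraries, and cisplatin libraries overlapped with them. In a fit without the filter, C3ar1 was 0.11 higher after cisplatin (limma adjusted p = 0.0659) and 0.25 higher in the combination group (limma adjusted p = 0.000726); edgeR gave 0.43 (adjusted p = 0.0404) and DESeq2 0.43 (adjusted p = 0.114) for the latter.

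The mean within-library log2 ratio of C3ar1 to C5ar1 differed from vehicle by -0.61 and -0.64 in the cisplatin and combination groups, given as a description, since C5ar1 passed the filter only through those groups and C3ar1 not at all. C5ar2, the second C5a receptor and the neighbour of C5ar1, was at 0.02 to 0.38 FPKM and was not tested. The neutrophil list stands beside these values: its 10 genes summed to 3.36 to 9.93 FPKM in vehicle libraries, 33.63 to 41.2 in cisplatin libraries and 26.74 to 54.07 in combination libraries, 6 of the 8 tested rose after cisplatin, beside 56.3% of all genes, and none was at 0 in all libraries of a group. Ly6g, a neutrophil surface marker of mice, went the other way, with means of 1.29, 0.80 and 0.44 FPKM in the vehicle, cisplatin and combination groups, and fell in the combination group against vehicle (-0.67 ± 0.16, limma adjusted p = 0.00137). Of the neutrophil list, S100a8, Csf3r, Retnlg and Camp stayed under 1 FPKM in every vehicle library, at up to 0.53, 0.81, 0.11 and 0.66. S100a9 and Ngp had vehicle means of 0.49 and 0.63. These genes passed the filter through the treated groups, which selects for higher treated values, so the count of rises is no independent support. The part of neutrophils in the receptor values was not tested.

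Addition of 84-B10 to cisplatin was the second question of the design, and the members differed little between these groups. By limma 0 of the 8 passed, beside 2.21% of all genes (275 of 12428), and 1, C3, had an unadjusted p under 0.05. On the counts of 10 libraries, edgeR also gave 0 and DESeq2 gave 1, C3 (log2 fold change -0.28, adjusted p = 0.0374). The members' median log2 fold change was 0.06, against 0.02 over all genes.

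C3 was the member with the clearest difference. Its combination libraries, at 189.8 to 221.6 FPKM, all lay below the cisplatin libraries, at 222.1 to 273.5, with a gap of under 1 FPKM between the nearest; it was the single member of 8 with full separation, beside 8.24% of all genes. The log2 fold change of C3 was -0.31 ± 0.08 (95% interval -0.47 to -0.14, limma adjusted p = 0.0675). Without cisplatin library 1 it was -0.37 (limma adjusted p = 0.0223), and over all alternatives run the adjusted p ranged from 0.0223 to 0.187. The ratio of C3 to Cfi was lower in all combination libraries, at 3.38 to 3.76 against 3.93 to 4.19 on the log2 scale, a difference of -0.50 (exact permutation test, adjusted p = 0.0468; 0.0935 without cisplatin library 3).

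The intervals of the other members' differences bound what could be hidden at this number of libraries. They ran from -0.15 to 0.30 for C1qa, from -0.19 to 0.46 for C4b, from -0.08 to 0.16 for C2, from -0.33 to 0.10 for Cfb, from -0.04 to 0.42 for Cfi, from -0.29 to 0.10 for Cd55, and from -0.04 to 0.38 for C5ar1, all as log2 fold change of combination against cisplatin. The limma adjusted p-values of these members were 0.428 to 0.784. These genes are therefore not shown to be equal in the 2 groups.

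**Figure D3:**
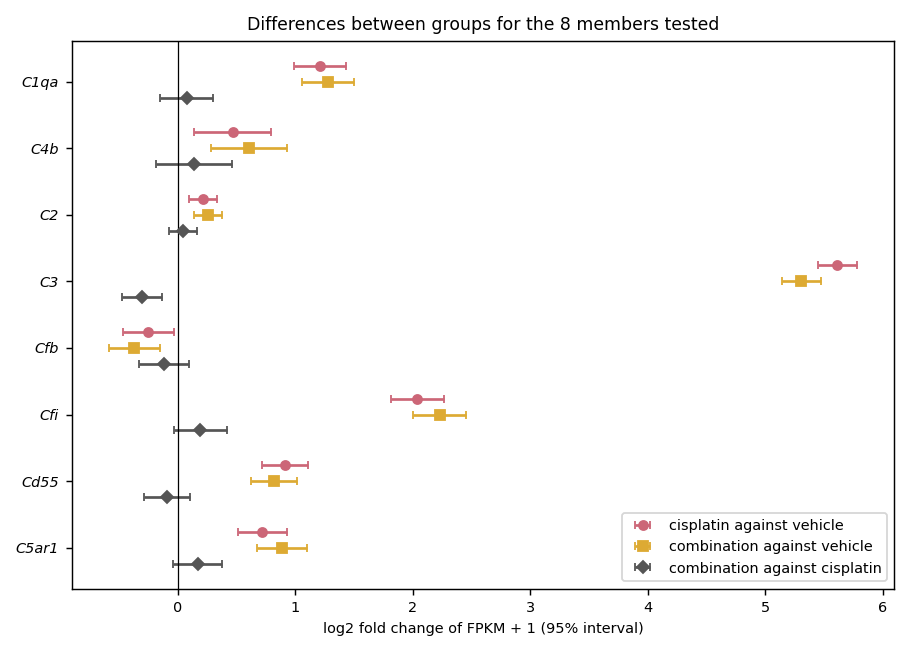
Log2 fold change of FPKM + 1 with its 95% interval from limma for the 8 members tested, with 1 row of 3 symbols a gene (circles, cisplatin against vehicle; squares, combination against vehicle; diamonds, combination against cisplatin). The intervals against vehicle lie above 0 except for Cfb, which lies below 0, and 7 of the 8 diamonds have an interval that includes 0, with C3 at -0.47 to -0.14 the exception; with median-of-ratios scaling the C2 values against vehicle fall just below 0.

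The rest of the complement system was described from a list of 51 other genes, of which 49 had a row, 24 were tested and 22 were under 1 FPKM in every library. After cisplatin 16 of the 24 rose, 1 fell and 7 did not pass, with a median log2 fold change of 0.47 against 0.26 over all genes. The split moved with the scaling: 13 rose and 6 fell with median-of-ratios scaling, 10 and 5 with quantile normalization, 13 and 5 in edgeR, and 14 and 5 in DESeq2. Of the 24, 4 (C4bp, Cd46, Itgam and Itgax) had every vehicle library under 1 FPKM, so they passed the filter through the treated groups. This selects for higher treated values, so their tests are no independent support. Between combination and vehicle 17 rose, 4 fell and 3 did not pass. These shares stand beside the 56.3% and 56.6% of all genes that rose.

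In the classical initiation group all 4 other genes tested rose after cisplatin, beside 56.3% of all genes. C1qc had the largest rise, as given above. C1ra, a protease bound to C1q, rose from 5.56 to 12.4 FPKM (log2 fold change 1.013 ± 0.12, limma adjusted p = 3.11e-06). The smallest rise was that of C1s1, a second protease (0.45 ± 0.15, limma adjusted p = 0.0148), which was not called with median-of-ratios scaling, quantile normalization, edgeR or DESeq2. In the lectin group, 1 of 2 tested rose: Colec12, a scavenger receptor with a collectin domain, by 0.48 ± 0.10 (limma adjusted p = 0.000766), with the call lost in edgeR, DESeq2 and quantile normalization. Mbl1, a mannose-binding lectin, did not pass (-0.19 ± 0.17, limma adjusted p = 0.321). Cfp, which encodes properdin, the stabilizer of the alternative convertase, rose from 1.88 to 3.69 FPKM (0.70 ± 0.11, limma adjusted p = 5.06e-05).

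Of the regulators other than Cfi and Cd55, 5 of 10 tested rose after cisplatin, beside 56.3% of all genes, and 5 did not pass. Among those that rose, Cd46 was not called with quantile normalization, edgeR or DESeq2. Clu, which encodes clusterin, an inhibitor of the membrane attack complex and a long-used marker of tubule injury, rose from 238.3 to 1801 FPKM (log2 fold change 2.91 ± 0.15, limma adjusted p = 1.29e-09) and was at 2072 in the combination group. Cpn1, a subunit of the carboxypeptidase that inactivates C3a and C5a, was the most abundant regulator that did not pass, at 49.6 and 53.8 FPKM (0.11 ± 0.10, limma adjusted p = 0.346). The next 2 genes, C1s1 above and Cd46, Itgb2 and Cd93 were named after their values were seen, as was Itgax. Serping1, the C1 inhibitor, rose from 16.0 to 45.5 FPKM (1.43 ± 0.20, limma adjusted p = 1.85e-05). C4bp, a cofactor of factor I, was at 0 to 0.11 FPKM in vehicle libraries and at 1.30 to 1.74 in cisplatin libraries (1.27 ± 0.08, limma adjusted p = 4.01e-09), with 0 to 3 estimated counts in vehicle libraries, so no fold is given; it passed the filter through the treated groups only, so its test is no independent support.

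All 4 other receptor genes tested rose after cisplatin, beside 56.3% of all genes. The largest was Itgam, the alpha chain of complement receptor 3 on neutrophils and macrophages, at 0.18 to 0.30 FPKM in vehicle libraries and 1.79 to 2.30 in cisplatin libraries (log2 fold change 1.31 ± 0.09, limma adjusted p = 2.04e-08). Itgam and Itgax, an integrin chain of complement receptor 4, passed the filter through the treated groups only, and the call of Itgax was lost with quantile normalization (0.07, limma adjusted p = 0.597). Itgb2 and Cd93, with smaller rises, were not called with median-of-ratios scaling, quantile normalization, edgeR or DESeq2.

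Genes of the membrane attack complex went in different directions. C7 rose from 1.46, 1.89, 4.00 and 1.89 FPKM in vehicle libraries to 17.2, 26.1, 14.1 and 20.7 in cisplatin libraries (log2 fold change 2.65 ± 0.22, limma adjusted p = 8.97e-08), and it was at 14.3, 16.7, 15.0 and 21.6 in combination libraries. C7 also stands beside the stroma list. Its 6 genes summed to 33.59 to 44.71 FPKM in vehicle libraries, 50.27 to 105.4 in cisplatin libraries and 59.04 to 79.35 in combination libraries. None was at 0 in all libraries of a group. After cisplatin 5 of the 6 rose, beside 56.3% of all genes. Acta2, the most abundant of the 6 in vehicle kidneys, fell from 18.8 to 12.5 FPKM (-0.58 ± 0.14, limma adjusted p = 0.00222). The part of these cells in the C7 values was not tested. C8g, the lipocalin subunit of C8, fell from 13.7, 15.0, 14.6 and 15.7 FPKM to 7.30, 4.88, 5.62 and 6.37 (-1.17 ± 0.09, limma adjusted p = 7.45e-08). C8g overlaps the neighbouring gene Fbxw5 in RefSeq, and strandedness is not given, so its reads may not all be its own; the same holds for C8a, which overlaps Fyb2.

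Of the 24 other genes, 2 differed between combination and cisplatin, both subunits of C8, and both were lower, beside 1.78% of all genes. C8a, the alpha subunit, was 3.86, 3.33, 4.28 and 3.34 FPKM in vehicle libraries and 3.17, 2.19, 4.37 and 3.63 in cisplatin libraries, but 0.27, 0.35, 0.67 and 0.24 in combination libraries. Vehicle and cisplatin libraries overlapped, and every combination library lay below all of them. C8a reached an FPKM of 1 only in vehicle and cisplatin libraries. It thus passed the filter through the groups where it was higher, so its test is no independent support. C8a had a log2 fold change of -1.64 ± 0.14 for combination against cisplatin (limma adjusted p = 2.6e-05), with an adjusted p of at most 0.000231 when any library was left out; on counts edgeR gave -3.42 (adjusted p = 1.01e-05) and DESeq2 -3.43 (adjusted p = 4.47e-36), since no value is added there. Estimated counts were 249 and 215 in cisplatin libraries 3 and 4 and 13 to 38.46 in combination libraries. After cisplatin alone, C8a did not pass (-0.14 ± 0.14, limma adjusted p = 0.396), except with median-of-ratios scaling (-0.37, adjusted p = 0.0361).

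C8g in combination libraries was 4.75, 4.00, 3.91 and 4.04 FPKM, just under the lowest cisplatin library at 4.88. C8g had a log2 fold change of -0.44 ± 0.09 (limma adjusted p = 0.0282), and the call was lost without any of 5 libraries (highest adjusted p = 0.09), without the filter, with only the 2 groups in the fit and in DESeq2. Markers of other cells stand beside C8a, and 2 lists had members that were also lower in the combination group. The liver list as a whole overlapped between the groups: its 8 genes summed to 108.8 to 206.2 FPKM in vehicle libraries, 117.2 to 216.8 in cisplatin libraries and 89.87 to 119.1 in combination libraries, 2 of the 6 tested fell in the combination group against cisplatin, and none was at 0 in all libraries of a group. Apoh, a plasma glycoprotein, had means of 5.50 and 1.71 FPKM in the cisplatin and combination groups (-1.26 ± 0.09, limma adjusted p = 8.76e-06), while Alb, albumin, was at 1.97 and 2.16 (0.08 ± 0.15, limma adjusted p = 0.842). Of the 7 kidney tubule markers, whose sums are given above, 2 fell between cisplatin and combination. This count and that of the liver list stand beside the 1.78% of all genes that fell. Both tubule genes are of the thick ascending limb. Slc12a1, its salt transporter, had means of 33.3 and 4.75 FPKM (-2.40 ± 0.32, limma adjusted p = 0.000906), and Umod, uromodulin, 247.5 and 91.6 (-1.40 ± 0.23, limma adjusted p = 0.00476). The part of these cells or of other tissue in the C8a values was not tested.

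**Figure D4:**
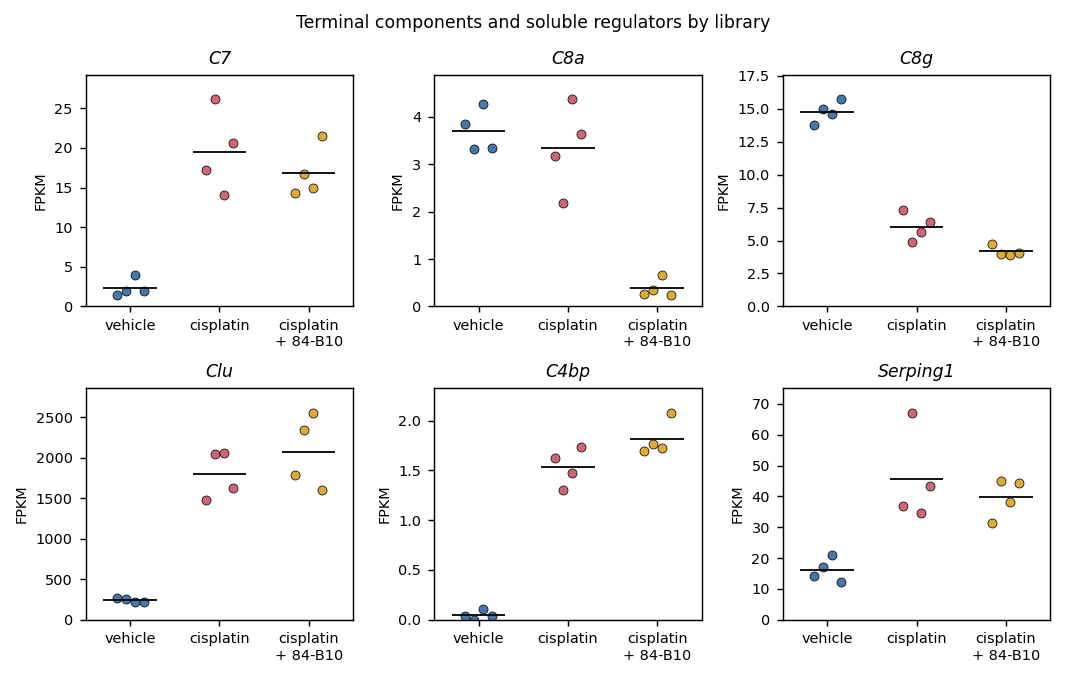
FPKM of 3 membrane attack complex genes (C7, C8a, C8g) and 3 soluble regulators (Clu, C4bp, Serping1) in each library (points) with the mean of each group of 4 (lines); vertical axes start at 0 and differ between panels. C8a lies at 0.24 to 0.67 in the combination group and at 2.19 to 4.37 in all other libraries.

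**Figure D5:**
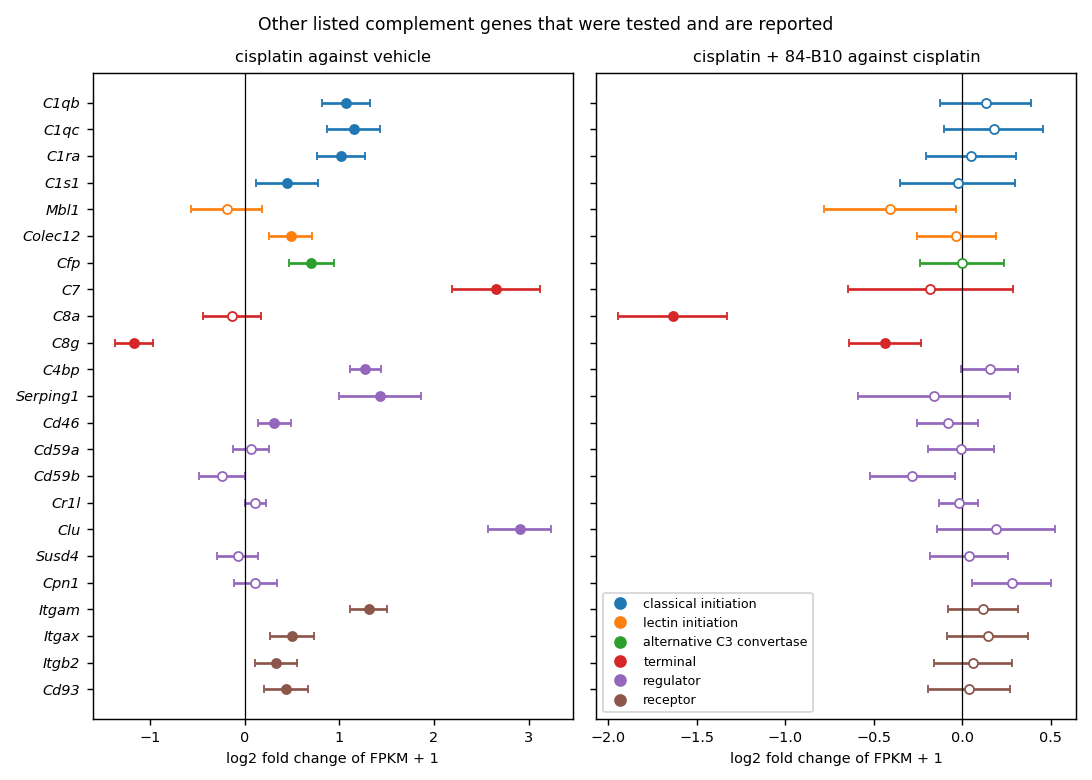
Log2 fold change of FPKM + 1 with its 95% interval from limma for 23 of the 24 other complement genes tested, coloured by role; filled circles passed at an adjusted p under 0.05 and open circles did not. After cisplatin 16 circles are filled, and between combination and cisplatin the filled circles are C8a and C8g.

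Each member's profile was also matched to all tested genes by the root mean square difference of log2(FPKM + 1), each gene taken relative to its own vehicle mean, over the 12 libraries. The genes most like C3 were Phlda3 (0.21), Akap12 (0.21) and Mt2 (0.29), where 0 would be an identical profile. For C1qa they were Mcm3 (0.093), Gjb5 (0.11) and C1qc (0.11), so a partner chain was among the 3. For Cfi they were Lxn (0.13), Ifngr2 (0.13) and Stat3 (0.14), and Pik3r1 and Ell2 (0.11 each) were among those nearest to Cd55. Cfb was nearest to Man1a (0.053), C2 to Zfp672 (0.048), C4b to Sh3d19 (0.13), C3ar1 to Trip6 (0.049) and C5ar1 to Hnrnpab (0.10). None of the 9 members was among the 3 nearest of another member. Because 1 was added to each FPKM, a short distance need not mean an equal fold at low levels. Gjb5 had means of 0.04 and 1.24 FPKM in vehicle and cisplatin kidneys, against 11.6 and 28.2 for C1qa. Hnrnpab had means of 79.2 and 129.9, against 0.2 and 0.98 for C5ar1. These distances describe likeness in 12 libraries of 3 groups and no more.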

How the data were processed

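Kidney RNA of 12 mice, 4 a group, was sequenced by the submitters. The authors deposited FPKM for all 12 libraries and, for 10 libraries under a readable heading, estimated counts (34.3% of them fractional); 14 further per-library columns, whose headings are displaced or missing, were not used. The submitters' processing notes name HISAT2 2.0.4, Bowtie2 2.2.5 and RSEM 1.2.12; for their roles, genome build, annotation and strandedness no statement was found (not given in the sources used here). Members were matched by symbol. Groups follow the treatment labels. Replicates are biological per the labels, with p-values measuring the spread between libraries. No 2 FPKM columns were identical, and chi-square per degree of freedom of counts within a group was at least 4.53.

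FPKM as deposited were tested as log2(FPKM + 1) with limma 3.58.1 in R 4.3.3 (3 group means over 12 libraries, 9 residual degrees of freedom, mean trend, two-sided) in the 12428 genes that reached an FPKM of 1 in 4 or more libraries. P-values were Benjamini-Hochberg adjusted over all of these genes in each comparison, with a threshold of 0.05. Within-library log2 ratios of FPKM + 1 were compared by exact two-sided permutation tests (70 arrangements, 18 tests). Alternatives were another pseudocount (0.1), filters, scalings, a replicate block, omission of each library, and edgeR 4.0.16 and DESeq2 1.42.0 on the rounded estimated counts. Limma on FPKM of the same 10 libraries was added after seeing the data. The fitting steps were tested on simulated data.

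Besides the 9 members, the text names in each role of the complement list the passing gene with the largest change each way and the most abundant that did not pass, partner chains and close copies of members, and the 3 nearest profiles of a member; exceptions are stated, and a few genes are not reported here by name. The members, gene lists, ratios and tests were chosen with earlier results of these data known. Shared 50-base stretches were found in GENCODE M21 transcripts, and start-site sequences are from RefSeq. The same-numbered libraries of the groups did not deviate together throughout, so the numbers were not used to pair samples.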

Additional observations from a re-analysis of the deposited data

Results flagged for a closer look

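In each of the 27 combinations of a member and a group of 4 libraries, the highest and lowest library were compared with the rest by the gap to the nearest library over the whole range, against Dixon's 95% critical value for 4. Chance flags about 1 in 20 groups of this size. Cisplatin library 1 stood apart for C4b, at 3.3 FPKM against 1.89 to 2.11 in the other libraries of its group (ratio 0.844). Cisplatin library 2 stood apart for Cfi, at 15.93 FPKM against 13.66 to 13.83 (ratio 0.925).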

How the results depend on the processing

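The 9 members' log2 fold changes were recomputed in 555 combinations of member, comparison and alternative. Against vehicle, 166 of these values for cisplatin and 178 for the combination kept direction and side of the threshold, as did 180 for combination against cisplatin; 15 and 1 lost the call against vehicle, and 2 in each combination comparison gained it. C2 reversed under median-of-ratios scaling, quantile normalization, edgeR and DESeq2, at -0.0669, -0.0565, -0.0837 and -0.0957 for cisplatin and -0.0311, -0.0197, -0.0219 and -0.0306 for the combination. C1qa between combination and cisplatin reversed in edgeR, DESeq2 and limma on 10 libraries, at -0.0454, -0.0413 and -0.0167, in a comparison where it passed in none. With quantile normalization the count of members changed after cisplatin was 4 in place of 8. No ratio passed with it (exact permutation tests, adjusted p = 0.0514, or 0.478 for Cfb to C2 after cisplatin). C3 to C4b was 5.27 and 4.84, and C3 to Cfi 3.69, 3.22 and -0.46. C3 to Cd55 was 4.79 and 4.62, and Cfb to C2 -0.0659 and -0.24. C3ar1 to C5ar1, given as a description only, was -0.64 and -0.67. An adjusted p of 0.0514 still comes from 0.0286, the smallest p of the exact test. It rose from 0.0468 because Cfb to C2 after cisplatin no longer had that p, so fewer of the 18 tests did. Of the other complement genes, 28 changed after cisplatin without the filter and 9 at a mean FPKM of at least 5, in place of 17, as more or fewer genes were tested. Between combination and cisplatin the count of genes changed was 176 with only the 2 groups in the fit and 441 in DESeq2, in place of 275, and 152 to 298 when a library was left out (152 without combination library 3, 158 without combination library 2, 178 without cisplatin library 4). Members changed there came to 1 in DESeq2 and 0 to 1 when a library was left out, and other complement genes to 1 at a mean of at least 5, 1 with only the 2 groups and 1 to 2 when a library was left out, in place of 2. Apart from the adjustment of the ratio tests, the cause was not tested in any of these.

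Groups share replicate numbers, but same-numbered libraries correlated in their deviations from the group means at 0.079, 0.071, -0.08 and -0.07 for numbers 1 to 4 between cisplatin and vehicle and at 0.56, 0.25, 0.37 and -0.24 between combination and cisplatin. With the replicate block 9696 genes changed after cisplatin, 9826 between combination and vehicle and 316 between combination and cisplatin, and 8, 8 and 0 members. Count depth limits C3ar1 (21.2 to 55 estimated counts) and C5ar1 (3 to 60.99) most, and cisplatin libraries 1 and 2 are not in the count tests.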
